A study of Mus musculus with 53 samples.

Results

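The proteasome and immunoproteasome genes were followed in mouse bone marrow-derived macrophages (BMDMs) exposed to IL-4. Members were all rows of the expression tables whose symbol starts with Psma, Psmb, Psmc, Psmd, Psme, Psmf or Psmg followed by a number, which gave 49 of the 23847 loci listed. This rule reads names and no measured values, but it was set with earlier results of these data known. WT and Stat6-/- (full-body knockout) mice were 8 to 12 weeks old, and the knockout was on the C57BL/6 background. Bone marrow cells of both genotypes were grown for 6 days with L929 supernatant, a source of the macrophage growth factor MCSF, and were then given 20 ng/ml of IL-4 or left without it, for 1, 3, 6 or 24 h. A control at 0 h was also taken. The 53 samples formed 18 groups, with 4 WT samples per group except for 3 at 24 h of IL-4 (replicates 2 to 4; replicate 1 is not analysed here), and 2 Stat6-/- samples per group. WT samples came from individual animals according to the study; the sources used here do not say so for Stat6-/- samples, for which p-values measure the spread between these samples, nor whether a replicate number marks the same animal in each group. Expression was polyadenylated RNA in FPKM, which relates fragments to transcript length and to the mapped total of a sample.

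The proteasome is the protease that degrades ubiquitin-tagged proteins. Its barrel-shaped core is built from outer rings of alpha subunits (Psma genes) and inner rings of beta subunits (Psmb genes), and Psmb5, Psmb6 and Psmb7 carry the constitutive catalytic sites. In cells exposed to interferons, and constitutively in many immune cells, Psmb8, Psmb9 and Psmb10 replace Psmb5, Psmb6 and Psmb7, respectively, to form the immunoproteasome, which favours peptides that fit MHC class I. A regulatory cap of ATPases (Psmc) and non-ATPase subunits (Psmd) unfolds the substrate, while Psme1 and Psme2 together form an interferon-inducible activator ring that takes the place of the cap. Psme3 and Psme4 encode other activators, Psmf1 encodes an inhibitor of the core, and Psmg1 to Psmg4 encode chaperones that assemble the core. IL-4 acts through STAT6 to drive the alternative polarization of macrophages.

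The promoters of 3 members are shown because their mRNAs took different courses after IL-4, as described with the values. Each is the RefSeq window from 250 bases before to 50 bases after the transcription start on GRCm38.p6, and capitals mark matches on either strand to 4 motifs. These were an interferon-stimulated response element core (TTTC, any 2 bases, TTTC), a STAT6-type site (TTC, any 4 bases, GAA), an antioxidant response element core (TGACNNNGC) and a CCAAT box (CCAAT). The windows are Psmb10 at chr8:105938343-105938642 (minus strand), Psmb9 at chr17:34187281-34187580 (minus strand), and Psmb6 at chr11:70525107-70525406 (plus strand).
Psmb10: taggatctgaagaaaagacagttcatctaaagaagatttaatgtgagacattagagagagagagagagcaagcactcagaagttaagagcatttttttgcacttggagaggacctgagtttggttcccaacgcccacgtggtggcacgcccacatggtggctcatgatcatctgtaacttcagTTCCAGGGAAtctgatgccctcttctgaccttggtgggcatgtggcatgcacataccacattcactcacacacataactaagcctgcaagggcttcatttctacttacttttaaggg
Psmb9: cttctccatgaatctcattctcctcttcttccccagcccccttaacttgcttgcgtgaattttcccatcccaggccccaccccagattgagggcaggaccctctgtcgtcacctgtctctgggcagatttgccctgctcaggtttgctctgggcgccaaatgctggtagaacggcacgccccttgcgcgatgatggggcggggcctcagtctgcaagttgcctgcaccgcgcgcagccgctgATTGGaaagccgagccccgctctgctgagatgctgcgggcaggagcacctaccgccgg
Psmb6: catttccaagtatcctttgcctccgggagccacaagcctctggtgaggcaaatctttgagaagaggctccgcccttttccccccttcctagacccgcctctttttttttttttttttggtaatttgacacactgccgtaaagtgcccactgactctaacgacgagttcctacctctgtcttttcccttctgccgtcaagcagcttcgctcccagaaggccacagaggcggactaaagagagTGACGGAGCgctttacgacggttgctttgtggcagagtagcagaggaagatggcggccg

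The match in Psmb10 was the STAT6-type site, starting 67 bases before the transcription start. Psmb10 was the only one of the 41 members with a listed promoter to hold this motif, which 8.01% of all 27025 genes in the promoter table held. Psmb6 held an antioxidant response element core that began 9 bases before the start, against 13.99% of all genes. Psmb9 held only a CCAAT box, on the opposite strand and 8 bases before the start, against 41.06% of all genes. The window of Psmb9 also reads into its neighbour Tap1, the peptide transporter of the MHC class I pathway, because the 2 genes start 226 bases apart on chromosome 17 and are transcribed away from each other. These matches describe letters in the windows and no binding was measured.

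Of the 49 members, 48 reached 1 FPKM in at least 1 sample and were tested. The exception was Psmb11, the beta subunit of the thymus, which stayed at or under 0.0059 FPKM in all 53 samples. Psma8, an alpha subunit of germ cells, entered with a highest value of 1.01 FPKM and a lowest of 0.0575 FPKM. Psmc3ip matched the name pattern, but it encodes a partner of Psmc3 that acts in meiotic recombination and is no proteasome subunit.

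Inducible core subunits were expressed at the level of the constitutive ones in these cells. Median FPKM over the 53 samples, a measure per transcript length, was 138 for Psmb8, 91.3 for Psmb10 and 82.7 for Psmb9, against 121 for Psmb6, 84.0 for Psmb7 and 47.1 for Psmb5. Psme1 had the highest median of all members, 179 FPKM, whereas its partner Psme2 was listed at 3.19 FPKM. Of the transcript sequence of Psme2, 54.92% in stretches of 50 bases also occurs in another annotated gene, its near-identical copy Psme2b, so its level is uncertain. Psma3, Psma5 and Psmb3 were likewise listed far under the other core subunits, at 5.95, 3.64 and 9.36 FPKM, and shared 21.99%, 55.38% and 55.79% of such stretches with other genes. The same share was 54.07% for Psmb5, mostly with the pseudogene Gm3375, and 23.72% for Psma4, so that their levels and the ratios made with Psmb5 carry the same uncertainty. Among cap subunits, the lid subunit Psmd8 was highest (145 FPKM) and Psmd11 lowest (9.05 FPKM). The core chaperones Psmg1, Psmg2, Psmg3 and Psmg4 had medians of 10.8, 11.1, 14.5 and 27.5 FPKM. Exons of Psmb8 overlap an annotated gene on the other strand over 15.21% of their length, and those of Psmb7 over 40.76% (Nek6), and the libraries carry no strand, so reads of such pairs cannot be told apart there.

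**Figure D1:**
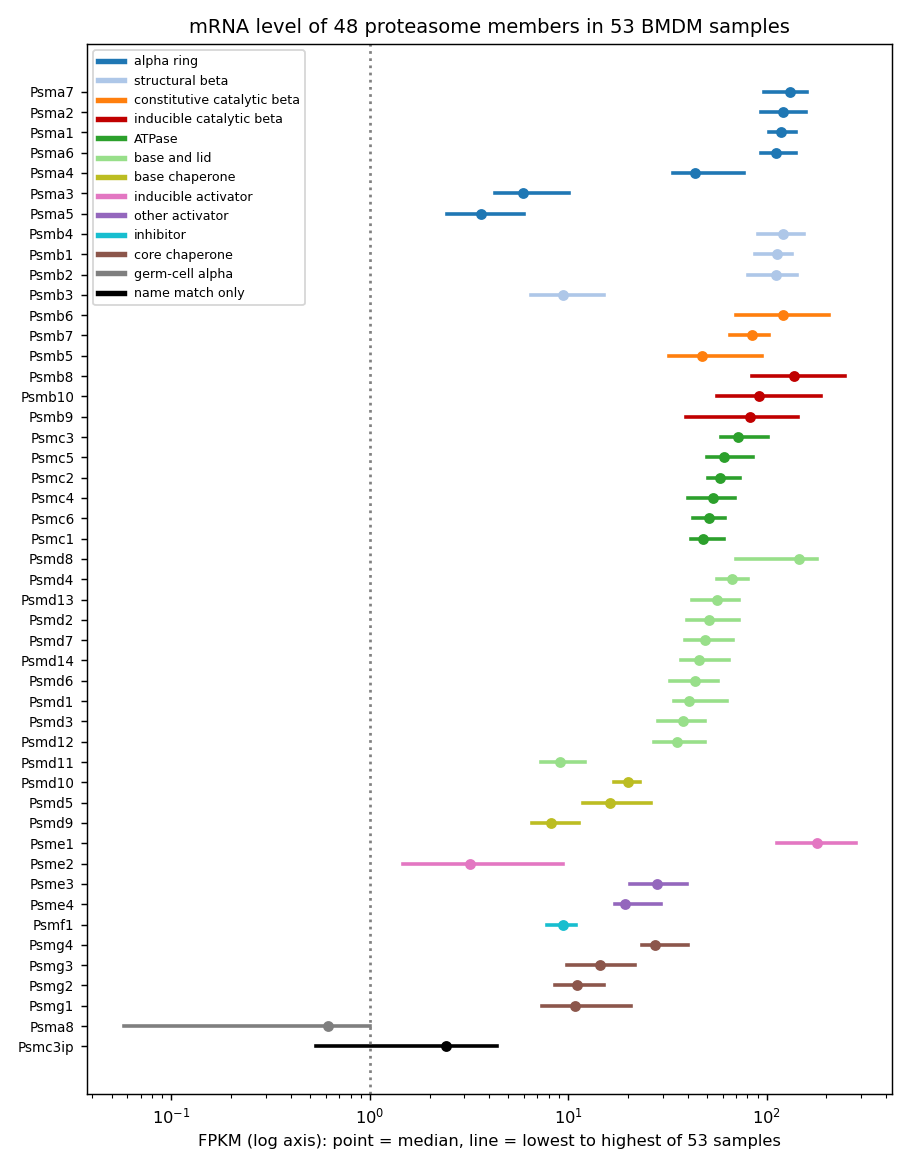
Level of the 48 tested members in FPKM on a log axis, with the median (point) and the lowest to the highest of 53 samples (line), coloured by class; the dotted line marks 1 FPKM. Psme1 has the highest median (179 FPKM), and Psma3, Psma5 and Psmb3 (5.95, 3.64 and 9.36 FPKM) lie apart from the rest of the core.

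Before the comparisons, some libraries stood apart in members that the results rest on. In Stat6-/- cells, replicate 2 exceeded replicate 1 in all 9 groups for 4 of the 48 tested members, which were Psmb8, Psmb9, Psmb10 and Psme1. Psmb9 ranged from 40.2 to 69.1 FPKM over the 9 groups in replicate 1 and from 84.6 to 144 FPKM in replicate 2, a median difference of 0.99 on the log2(FPKM + 1) scale. The same difference was 0.85 for Psmb8, 0.78 for Psmb10 and 0.67 for Psme1. Psmb5 went the other way and was lower in replicate 2 in all 9 groups, by a median difference of -0.34. Tap1 differed in the same direction as the inducible subunits, with a median of 1.67 and a higher replicate 2 in 9 of 9 groups. Over all loci tested, 15.6% were higher in replicate 2 in all 9 groups. Their part in the Stat6-/- results was not tested, and those results are also given without each replicate. In WT cells, replicate 1 of the 0 h control was high, with Psmb8 at 249 FPKM against 134 to 146 in the other 3 and Psmb5 at 79.3 FPKM against 38.9 to 42.5.

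**Figure D2:**
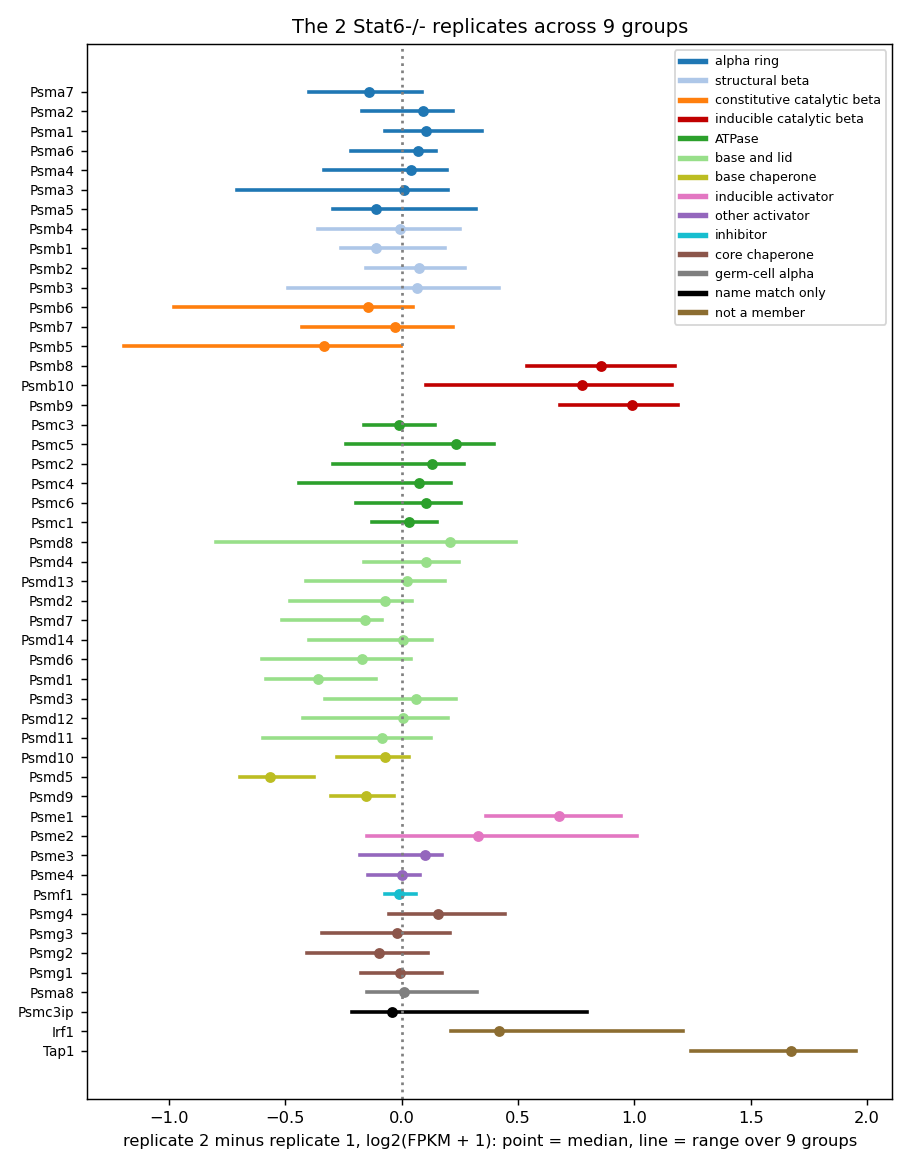
Difference between the 2 Stat6-/- replicates (replicate 2 minus replicate 1) in log2(FPKM + 1) for each tested member and for Irf1 and Tap1, as the median (point) and range (line) over the 9 Stat6-/- groups. The ranges of Psmb8, Psmb9, Psmb10, Psme1, Irf1 and Tap1 lie wholly above 0, those of Psmb5, Psmd1, Psmd5 (median -0.57), Psmd7 and Psmd9 lie wholly below, and most core and cap subunits straddle 0.

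The other facts of the series were as follows. FPKM values summed to between 385889 and 464915 per sample, and relative depth, recovered from low loci, ranged from 0.706 to 1.556 of the median sample. The targeted gene Stat6 was at 58.7 to 90.6 FPKM in WT and at 14.3 to 24.0 FPKM in Stat6-/- samples. Among macrophage markers, Cd68 was at 780 to 1678 FPKM and Mertk, the lowest, at 4.60 to 28.4 FPKM. Cd3e, Ms4a1, Xcr1 and Col1a1 stayed under 1 FPKM in every sample. Other markers from lists of other cell types did not. Cd4, of the T and NK cell list, reached 15.5 FPKM and was at least 1 FPKM in 51 samples. Cd79b, of the B cell list, was at 1.11 to 13.6 FPKM. Mcpt8 and Cpa3, of the mast cell and basophil list, reached 1 FPKM in 9 samples and 1 sample. Summed over 4 neutrophil markers, WT samples at 24 h held 396 to 535 FPKM without IL-4 and 191 to 280 FPKM with it, and Stat6-/- samples 496 to 934 FPKM. The part of this difference in the results at 24 h was not tested. In such bulk samples, fewer cells of a type and less RNA per cell cannot be told apart.

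IL-4 raised the mRNA of many members in WT cells. The 6 called higher at 3 h were the chaperones Psmg1, Psmg2 and Psmg3, the activators Psme3 and Psme4 and the alpha subunit Psma3, and most calls in the core and cap came at 6 and 24 h; an order between classes was not tested. Tests were made with limma on log2(FPKM + 1) with Benjamini-Hochberg adjustment over the 11146 loci tested, and a member was called at an adjusted p under 0.05. This scale understates the changes of low genes. At 1 h, 1 of the 48 members was called higher and 0 lower, against 5.67% and 3.72% of all loci. At 3 h, 6 were higher and 0 lower, against 16.4% and 12.5%. At 6 h the counts were 22 and 1, against 22% and 19.2% of all loci, and at 24 h they were 31 and 1, against 23.4% and 31.6%. The median difference of the 48 members moved from -0.070 at 1 h through 0.084 and 0.25 to 0.33 at 24 h, while the median of all loci was -0.016, 0.0090, -0.0002 and -0.069. All 6 members called higher at 3 h were also called higher at 6 h, and 18 of the 22 at 6 h were among the 31 at 24 h. Counted by separation, all IL-4 samples lay above all controls for 0, 10, 23 and 34 members at 1, 3, 6 and 24 h, against 8.27%, 20.8%, 23.8% and 27.4% of loci, and below them for 1, 0, 1 and 2, against 7.81%, 18.1%, 22.3% and 37.1%. The 2 members below at 24 h were Psmb9 and Psmf1, and the 1 called lower at 6 h was Psmc3ip (-0.53 (SE 0.15, adjusted p = 0.00459)). In all, 37 members were called at some time. The share of all loci called at some time was not counted, but 41.2% were called in either direction at 6 h and 55% at 24 h. The 11 members called at none in this fit included 4 of the 5 inducible genes, Psmb8, Psmb9, Psme1 and Psme2.

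**Figure D3:**
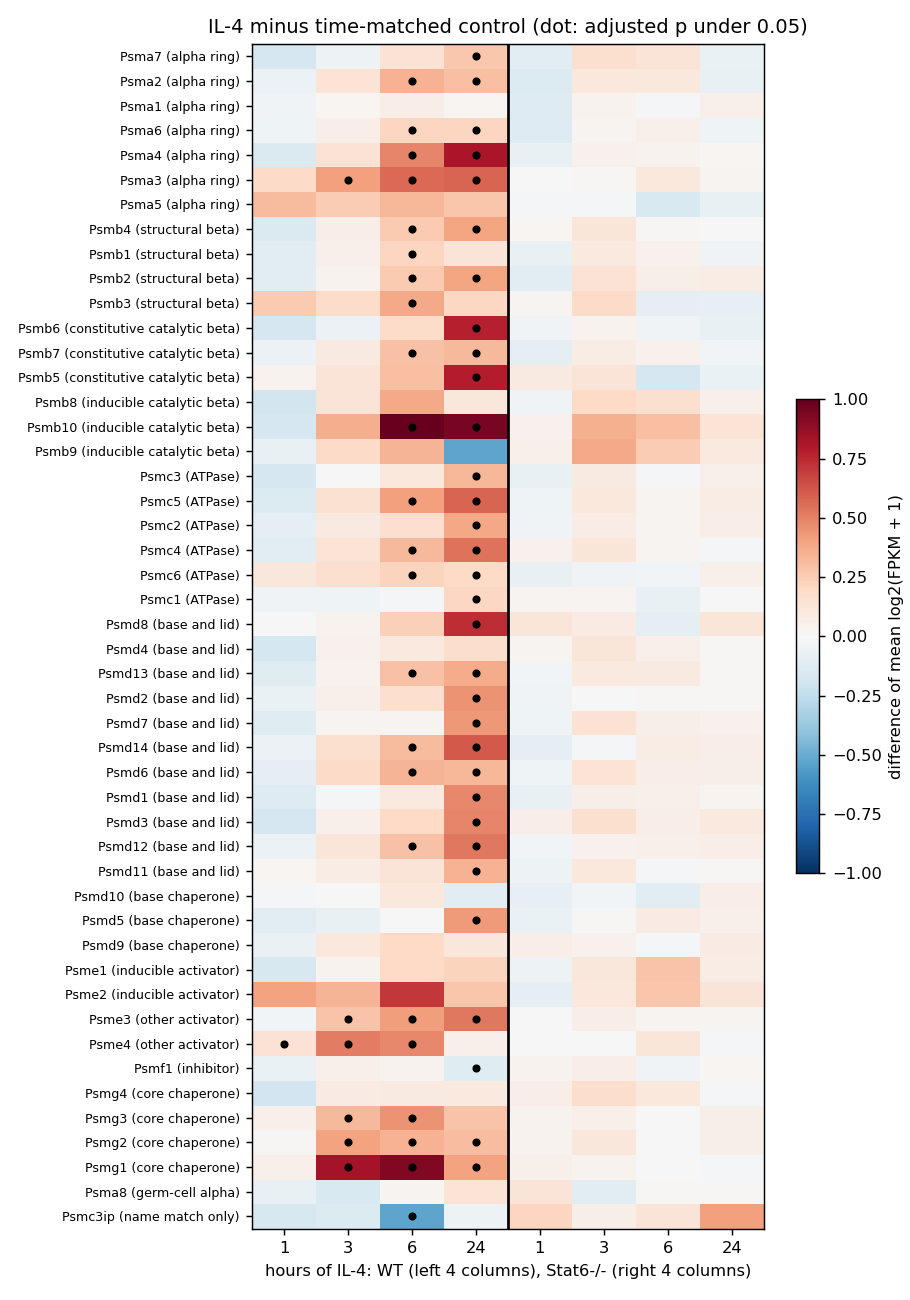
Difference of mean log2(FPKM + 1) between IL-4 and time-matched control for the 48 tested members (rows, by class) at 1, 3, 6 and 24 h in WT (left 4 columns) and Stat6-/- (right 4 columns); a dot marks an adjusted p under 0.05 by limma. Dots mark 6 members at 3 h (3 core chaperones, 2 activators and Psma3) and 32 members at 24 h in WT, and none appears in Stat6-/- cells.

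Psmg1, a chaperone that works with Psmg2 to build the alpha ring, had the earliest large rise. At 3 h it stood at 8.98, 10.2, 9.55 and 9.06 FPKM in the WT controls and at 18.7, 16.2, 17.5 and 18.1 FPKM with IL-4, a difference of 0.83 (SE 0.083, adjusted p = 1.31e-10). At 6 h the values were 7.42, 9.15, 8.69 and 10.8 FPKM and 16.1, 16.6, 18.2 and 20.7 FPKM, a ratio of means of 1.99 and a log2 difference of 0.92 (SE 0.083, adjusted p = 7.97e-12). The groups did not overlap at either time, and every IL-4 sample was well above the highest control. By 24 h Psmg1 was at 9.605, 9.06, 9.18 and 8.89 FPKM without and 14.2, 12.2 and 11.1 FPKM with IL-4, and the difference had narrowed to 0.40 (SE 0.090, adjusted p = 0.000273). The narrowing from 6 to 24 h was itself called, at -0.52 (SE 0.12, adjusted p = 0.00122). That test called 5 members higher and 3 lower, against 11% and 16.8% of all loci.

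Its partner chaperone Psmg2 was at 9.18, 11.1, 10.9 and 10.9 FPKM in controls and 13.8, 13.6, 14.3 and 15.1 FPKM with IL-4 at 3 h, again without overlap, and differed by 0.40 (SE 0.090, adjusted p = 0.000495). Psmg3, of the other chaperone pair, rose by 0.33 (SE 0.12, adjusted p = 0.032) at 3 h, and Psmg4 did not pass the test at any time. At 3 h, 3 of the 4 core chaperones were thus called higher, against 16.4% of all loci.

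Psme4, a large activator that binds the end of the core, was the one member called at 1 h. There it measured 17.96, 18.5, 18.4 and 19.1 FPKM in controls and 21.2, 20.8, 18.8 and 21.6 FPKM with IL-4, a difference of 0.15 (SE 0.048, adjusted p = 0.0462) with overlapping groups. This call was lost under quantile normalization (adjusted p = 0.101 by limma), with only the compared samples (0.172), with WT samples only (0.0559) and without any 1 of 6 of the 8 libraries compared (0.0832 to 0.167). At 3 h the controls held 19.4, 18.9, 20.5 and 20.4 FPKM and the IL-4 samples 27.8, 29.3, 28.1 and 29.5 FPKM, so that all IL-4 samples lay above all controls and the difference was 0.51 (SE 0.048, adjusted p = 2.22e-11). It remained at 0.48 at 6 h and was 0.048 (SE 0.052, adjusted p = 0.448) at 24 h, where controls held 18.8, 19.4, 19.02 and 20.1 and IL-4 samples 18.99, 20.3 and 20.8 FPKM. The fall of the response between 6 and 24 h was -0.43 (SE 0.070, adjusted p = 7.38e-06). At 24 h the Psme4 groups overlapped and the difference was not called.

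Psme3, the activator of the nuclear proteasome, rose and stayed up. It was at 27.8, 28.00, 28.1 and 29.5 FPKM in controls and 33.7, 33.8, 33.9 and 37.2 FPKM with IL-4 at 3 h, and at 25.2, 24.6, 27.1 and 27.2 and 39.8, 37.6 and 36.3 FPKM at 24 h. The groups were separate at both times, and the differences were 0.28 (SE 0.070, adjusted p = 0.00169) and 0.52 (SE 0.076, adjusted p = 3.06e-07). The inhibitor gene Psmf1 was the one member called lower at 24 h, at 9.27, 8.74, 9.11 and 8.997 FPKM in controls and 8.48, 7.86 and 8.31 FPKM with IL-4. That difference of -0.12 (SE 0.044, adjusted p = 0.0183) was small, but no IL-4 sample reached the lowest control. It was not called under quantile normalization, where it was -0.059 (adjusted p = 0.283 by limma), with only the compared samples (0.0548), without IL-4 replicate 3 (0.116) or without control replicate 1 (0.0504).

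Structural subunits of the core were called mostly at 6 and 24 h, when 22% and 23.4% of all loci were called higher. At 6 h, 4 of the 7 alpha subunits Psma1 to Psma7 and all 4 structural beta subunits (Psmb1 to Psmb4) were called higher, and at 24 h 5 of 7 and 2 of 4. Psma4 changed most among them. Its FPKM values at 24 h were 41.3, 37.4, 40.98 and 42.2 in controls and 77.2, 71.3 and 68.3 with IL-4, a ratio of means of 1.78 and a log2 difference of 0.82 (SE 0.087, adjusted p = 4.62e-10). The lowest IL-4 sample was far above the highest control. At 6 h Psma4 had differed by 0.49 (SE 0.081, adjusted p = 4.2e-06), and the increase of its response from 6 to 24 h was 0.33 (SE 0.12, adjusted p = 0.0332). Psma3 was called from 3 h on, at 4.58, 5.48, 4.42 and 4.63 FPKM in controls and 6.000, 8.45, 6.27 and 6.16 FPKM with IL-4, a difference of 0.41 (SE 0.14, adjusted p = 0.0265). In contrast, Psma1 differed by only 0.016 (SE 0.071, adjusted p = 0.868) at 24 h, with a 95% interval of -0.13 to 0.16.

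The constitutive catalytic subunits rose mainly at 24 h, when all 3 were called higher, against 23.4% of all loci. Psmb6, which cleaves after acidic residues, was at 122, 99.7, 121 and 120.1 FPKM in controls and 187, 207 and 199 FPKM with IL-4. Every IL-4 sample exceeded the highest control by more than the whole spread of either group, and the difference was 0.77 (SE 0.15, adjusted p = 6.17e-05), a ratio of means of 1.71. At 6 h it had been 0.19 (SE 0.14, adjusted p = 0.309), and the rise of the response between these times was 0.59 (SE 0.21, adjusted p = 0.0331).

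Psmb5, the chymotrypsin-like subunit, was at 55.00, 45.5, 47.8 and 54.4 FPKM in controls and 79.9, 88.9 and 95.3 FPKM with IL-4 at 24 h, a difference of 0.79 (SE 0.20, adjusted p = 0.0014). At 6 h the values were 38.7, 45.8, 43.4 and 45.6 and 51.5, 53.2, 49.4 and 61.4 FPKM. Those groups did not overlap either, yet the difference of 0.30 (SE 0.19, adjusted p = 0.202) was not called, except in the fit of the compared samples alone (adjusted p = 0.0137). Psmb7, the trypsin-like subunit, was called at both times, by 0.30 (SE 0.078, adjusted p = 0.00214) at 6 h and 0.32 (SE 0.084, adjusted p = 0.0015) at 24 h. It measured 70.6, 72.4, 78.3 and 80.1 FPKM in controls and 95.4, 92.9 and 94.7 FPKM with IL-4 at 24 h, so that it moved less than Psmb5 or Psmb6.

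The regulatory cap rose most broadly at 24 h, when 23.4% of all loci were called higher, against 22% at 6 h. All 6 ATPases and 10 of the 11 base and lid subunits were called higher at 24 h, against 3 and 4 at 6 h. The exception at 24 h was the ubiquitin receptor Psmd4, at 0.18 (SE 0.088, adjusted p = 0.085). Psmd14, the deubiquitinase of the lid, stood at 40.6, 40.6, 41.99 and 44.4 FPKM in controls and 64.7, 64.8 and 64.5 FPKM with IL-4. The 3 IL-4 values were almost equal and all above the controls, a difference of 0.62 (SE 0.074, adjusted p = 6.67e-09). Psmd8 was at 107, 79.1, 94.4 and 109 FPKM in controls and 160.0, 177 and 149.7 FPKM with IL-4, a difference of 0.74 (SE 0.16, adjusted p = 0.000253). Among ATPases the difference ran from 0.20 for Psmc6 to 0.58 for Psmc5. Of the chaperones that assemble the base, Psmd5 was called (0.43 (SE 0.17, adjusted p = 0.0351)), while Psmd9 and Psmd10 were not.

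The 5 inducible genes did not move together at 24 h, and in the main fit Psmb10 alone among them was called. At 6 h all 5 differences were positive. Psmb8 and Psmb9 were called there with only the compared samples (adjusted p = 0.00978 and 0.00598 by limma). They were also called with WT samples only (0.0306 and 0.00833), a fit chosen after seeing the data. Stat6-/- samples do not enter the spread in these 2 fits. Psmb10 replaces Psmb7 in the immunoproteasome. At 6 h it was at 72.9, 90.2, 82.3 and 76.6 FPKM in the WT controls and 149.8, 134, 179.9 and 188 FPKM with IL-4, or 80.5 ± 7.54 FPKM (SD, n = 4) against 163 ± 25.3 FPKM (SD, n = 4). Every IL-4 sample was above every control, and the difference was 1.00 (SE 0.24, adjusted p = 0.000878), a ratio of means of 2.03. The groups were equally separate at 24 h, with 80.8, 56.5, 72.9 and 71.2 FPKM in controls and 131, 139 and 138 FPKM with IL-4, a difference of 0.95 (SE 0.26, adjusted p = 0.0024). At 3 h the controls held 98.7, 96.5, 91.3 and 87.9 FPKM and the IL-4 samples 138, 98.4, 116 and 134 FPKM, which overlapped and were not called (0.36 (SE 0.24, adjusted p = 0.3)). Between 1 and 6 h the response of Psmb10 increased by 1.17 (SE 0.34, adjusted p = 0.00954), the largest among the 18 members called higher in that test. It called 0 lower, against 14.5% of all loci higher and 11.1% lower.

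Psmb9, which replaces Psmb6, was the one core subunit whose mean was lower with IL-4 than without at 24 h. Its controls were at 71.6, 60.8, 65.8 and 57.2 FPKM and its IL-4 samples at 49.9, 39.4 and 42.97 FPKM, or 63.8 ± 6.27 FPKM (SD, n = 4) against 44.1 ± 5.33 FPKM (SD, n = 3). No IL-4 sample reached the lowest control, yet the difference of -0.53 (SE 0.27, adjusted p = 0.101) was not called, with a 95% interval of -1.08 to 0.028. The same difference was called when only the 7 samples compared were fitted (adjusted p = 0.00255) and when only WT samples were fitted (adjusted p = 0.000216 by limma, a fit chosen after seeing the data), where Stat6-/- samples did not enter the estimate of the spread. At 6 h Psmb9 pointed the other way, with 69.2, 83.6, 72.9 and 68.4 FPKM in controls and 91.7, 85.9, 96.9 and 98.1 FPKM with IL-4. These did not overlap, and the difference was 0.34 (SE 0.25, adjusted p = 0.297), or an adjusted p of 0.00304 with the replicate number as a block.

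Psmb8, which replaces Psmb5, was close to its controls at 24 h. It was at 126, 99.7, 107 and 101 FPKM without and 127, 111 and 113 FPKM with IL-4, overlapping groups with a difference of 0.11 (SE 0.28, adjusted p = 0.752) and a 95% interval of -0.45 to 0.67. At 6 h it stood at 108, 146, 125 and 118 FPKM in controls and 157, 151, 164 and 172 FPKM with IL-4. All 4 IL-4 values lay above the controls at 6 h, and the difference was 0.38 (SE 0.26, adjusted p = 0.249), or an adjusted p of 0.0106 with the block.

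The activator genes Psme1 and Psme2 were not called at any time in the main fit. Psme1 was at 147, 124, 137 and 136 FPKM in controls and 165, 151 and 161 FPKM with IL-4 at 24 h, which did not overlap, a difference of 0.22 (SE 0.21, adjusted p = 0.371) that was called in the fit of the compared samples alone (adjusted p = 0.024). Psme2 varied widely within groups at 6 h, with 5.62, 2.32, 3.05 and 2.66 FPKM in controls and 8.78, 9.42, 3.05 and 4.61 FPKM with IL-4. Its difference was 0.71 (SE 0.30, adjusted p = 0.0579), or an adjusted p of 0.0161 with the block.

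**Figure D4:**
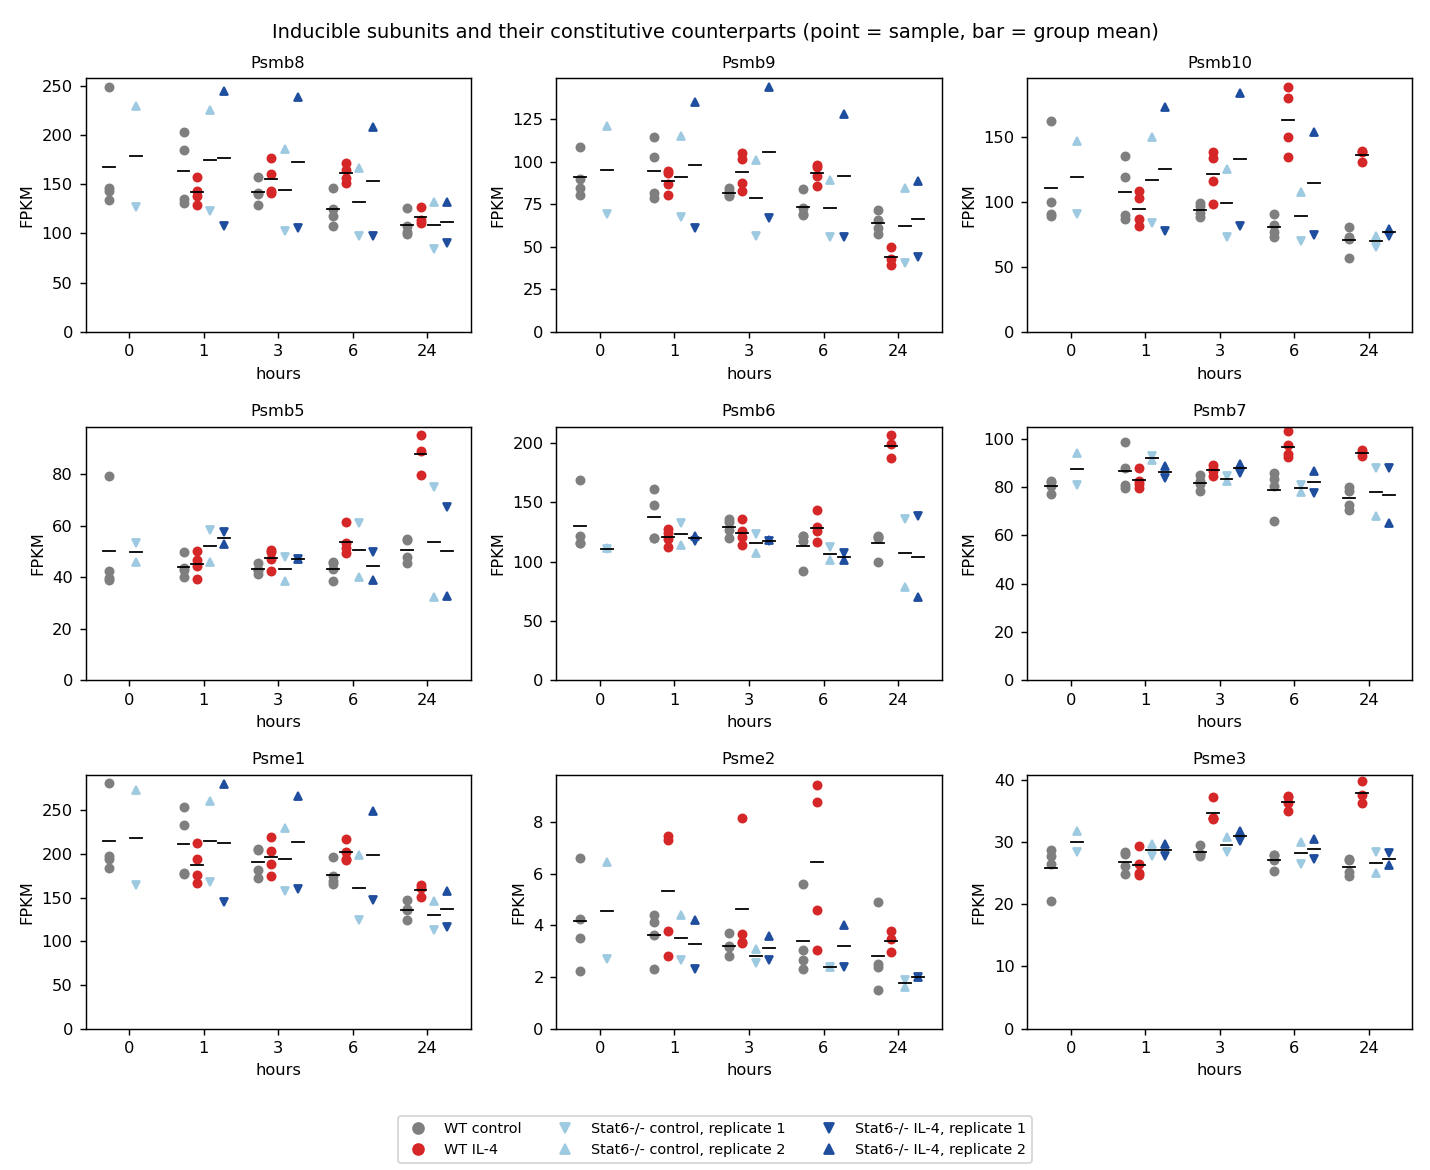
FPKM of Psmb8, Psmb9, Psmb10, their constitutive counterparts Psmb5, Psmb6 and Psmb7, and the activator genes Psme1, Psme2 and Psme3 against hours of treatment; each point is a sample, each bar a group mean, and Stat6-/- replicates 1 and 2 have their own symbols. At 24 h the 3 WT IL-4 samples are above the controls for Psmb10 (131 to 139 FPKM) and Psmb6 (187 to 207 FPKM) and below them for Psmb9 (39.4 to 49.9 FPKM).

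Set against its constitutive counterpart within each sample, the balance did not move the same way for the 3 catalytic pairs. The ratio of Psmb9 to Psmb6 had a geometric mean of 0.55 in the WT controls at 24 h (0.476 to 0.610 over 4 samples) and of 0.22 with IL-4 (0.190 to 0.266 over 3 samples). Both the higher Psmb6 and the lower Psmb9 entered this ratio, and the groups were far apart. In the other 7 WT groups the geometric mean was between 0.63 and 0.76. The ratio of Psmb8 to Psmb5 at 24 h was 2.14 (1.86 to 2.28) in controls and 1.33 (1.19 to 1.59) with IL-4, whereas at 6 h it was 2.85 and 2.99. The ratio of Psmb10 to Psmb7 instead rose, from 1.02 in controls to 1.67 with IL-4 (1.38 to 1.92) at 6 h and from 0.93 (0.78 to 1.14) to 1.44 (1.37 to 1.499) at 24 h. The mean of Psme1 and Psme2 over Psme3 was 2.67 (2.54 to 2.95) in controls and 2.14 (2.05 to 2.27) with IL-4 at 24 h. In Stat6-/- cells at 24 h, the ratio of Psmb9 to Psmb6 was 0.295 and 1.08 in control replicates 1 and 2. With IL-4 it was 0.318 and 1.27. The ratio of Psmb8 to Psmb5 was 1.12 and 4.09 in these controls and 1.34 and 4.04 with IL-4. Without IL-4, control replicate 1 was thus near the WT IL-4 samples for the first ratio and below them for the second. All these ratios describe mRNA per length and not subunits in assembled particles.

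**Figure D5:**
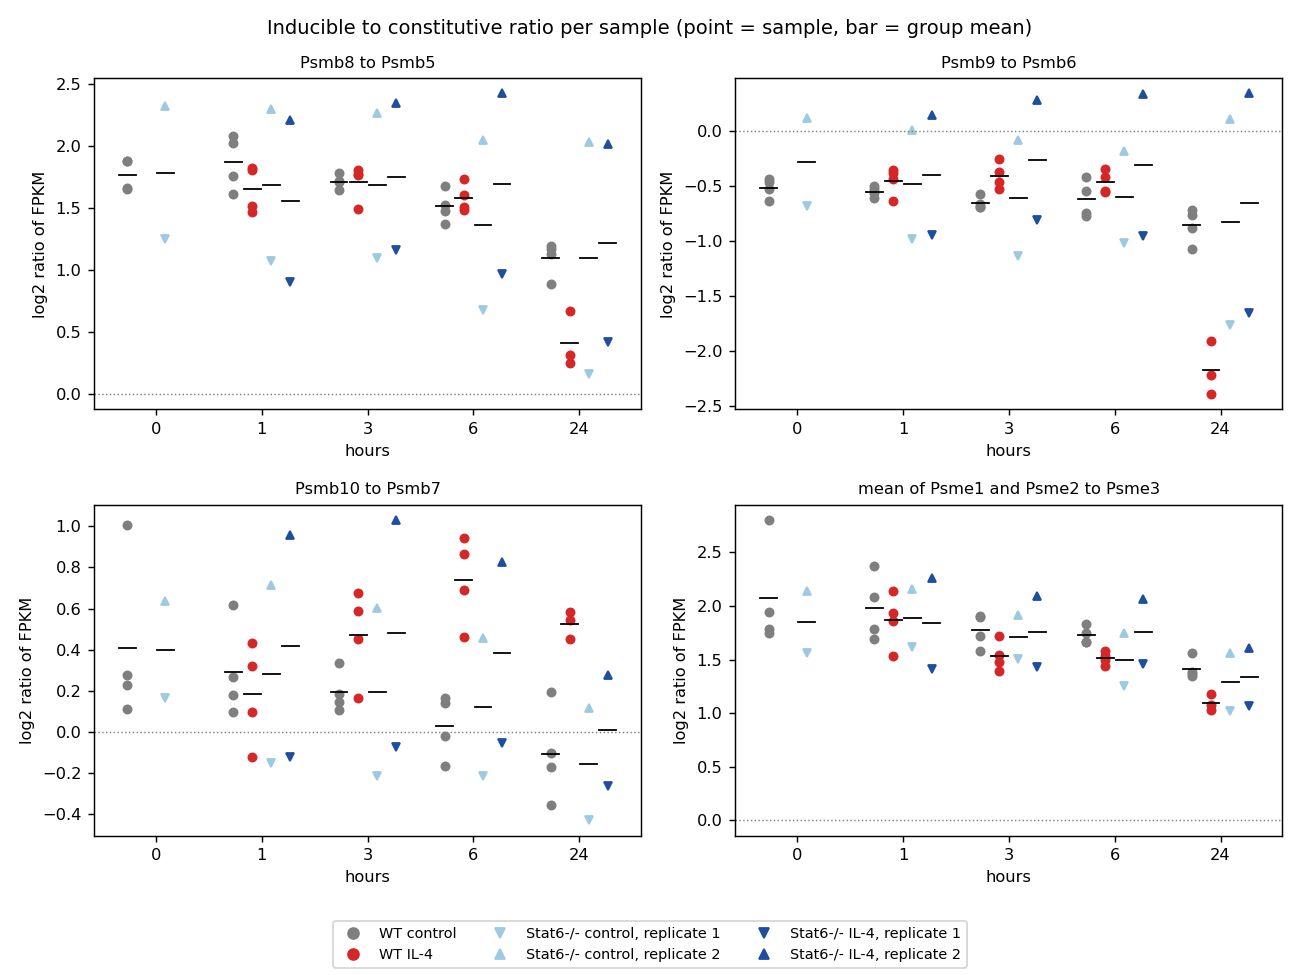
Log2 ratio of each inducible gene to its constitutive counterpart in FPKM per sample (points) with group means (bars) against hours of treatment; the dotted line marks equal levels. The WT IL-4 samples at 24 h have the lowest Psmb9 to Psmb6 ratios of all samples (0.190 to 0.266 on the linear scale).

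In Stat6-/- cells, 0 of the 48 members were called with IL-4 at any time. The whole table had 0% of loci called higher and 0% lower at each time in this genotype. At 1, 3, 6 and 24 h, 51, 131, 88 and 37 of the 11146 loci had an unadjusted limma p under 0.05, and 0 members were among them. These shares lay under the 0.05 that would pass with no effect at all. Deviations of same-numbered control and IL-4 samples correlated at 0.79 to 0.90, and the main fit left them in the spread. The lack of calls in this fit therefore cannot show that a response was absent. The same contrasts fitted with another pseudocount, no filter, quantile normalization, only the samples compared or a replicate block also called 0 members. The 2 samples of a group lay far apart for Psmb8, Psmb9, Psmb10 and Psme1, whose intervals were wide. Although none was called, all 5 inducible genes had positive differences at 3, 6 and 24 h in Stat6-/- cells. Their median was 0.20, 0.28 and 0.098 at these times, against 0.19, 0.38 and 0.22 in WT. At 1 h 2 of the 5 were positive in Stat6-/- cells and 1 in WT. Psmg1 was at 10.98 and 10.9 FPKM in Stat6-/- controls and 10.8 and 11.1 FPKM with IL-4 at 6 h, a difference with a 95% interval of -0.24 to 0.24. Psma4 was at 46.5 and 36.7 and 44.4 and 39.6 FPKM at 24 h, with an interval of -0.21 to 0.25. Neither interval reached the size of the WT difference at that time.

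For Psmb10 the Stat6-/- data were less decisive. At 6 h it was at 69.9 and 107 FPKM in controls and 74.6 and 154 FPKM with IL-4 in replicates 1 and 2, and the groups overlapped because the replicates differed more than the treatments. The difference was 0.30 with a 95% interval of -0.39 to 1.00. At 24 h the values were 65.2 and 73.98 FPKM and 73.5 and 79.1 FPKM, with an interval of -0.56 to 0.83. Psmb9 was at 40.2 and 84.6 FPKM in controls and 44.1 and 88.6 FPKM with IL-4 at 24 h, slightly higher in both replicates where WT samples were lower.

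The difference between the genotypes' responses was tested itself, as the WT response minus the Stat6-/- response. It was called higher for 0, 2, 4 and 10 members at 1, 3, 6 and 24 h, against 2.21%, 6.98%, 9.29% and 12.2% of all loci, and lower for 0 members at each time, against 1.15%, 4.22%, 7.19% and 14.8%. When the fit was blocked on replicate, 7 members were higher and 1 lower at 6 h and 20 higher and 1 lower at 24 h. The WT numbers were not taken to pair samples at 24 h. In the main fit, the members called at 3 h were Psmg1 (0.80 (SE 0.14, adjusted p = 7.96e-05)) and Psme4 (0.51 (SE 0.083, adjusted p = 1.41e-05)). At 6 h they were Psmg1 (0.92 (SE 0.14, adjusted p = 6.43e-06)), Psma4, Psme3 and Psme4. Without Stat6-/- replicate 1 or replicate 2 at all times, the same 2 members were called at 3 h, and the difference of Psmg1 at 6 h was 0.90 and 0.95 (adjusted p = 0.00172 and 0.00091 by limma). Without replicate 1 only Psmg1 was called at 6 h, and the adjusted p was 0.158 for Psma4, 0.0895 for Psme3 and 0.0805 for Psme4.

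At 24 h the 10 members included subunits of the core, the cap and an activator. Psmb6 was at 136 and 78.5 FPKM in Stat6-/- controls and 138 and 69.8 FPKM with IL-4, against the rise of all 3 WT samples, and the responses differed by 0.84 (SE 0.25, adjusted p = 0.0114). That difference was 0.36 without Stat6-/- IL-4 replicate 2 and 0.45 without Stat6-/- control replicate 1 (adjusted p = 0.374 and 0.287 by limma), 1.33 without IL-4 replicate 1 and 1.24 without control replicate 2, and it was not called with only the compared samples (adjusted p = 0.163). Psma4 differed by 0.80 (SE 0.14, adjusted p = 5.31e-05) and Psmd14 by 0.55 (SE 0.12, adjusted p = 0.000754). The others were Psmc4, Psmc5, Psme3, Psmd12, Psmd2, Psmg1 and Psma2, at 0.38 to 0.55. The count was 7 without Stat6-/- replicate 1 and 13 without replicate 2, and Psmb6, Psma4, Psmc4, Psmd14 and Psme3 were called in both cases while Psmg1 was called in neither. Removal of 1 Stat6-/- library of the 24 h groups moved it further, to 22 without IL-4 replicate 1, 3 without IL-4 replicate 2, 1 without control replicate 1 and 24 without control replicate 2. Psmb5 did not reach the threshold, at 0.85 (SE 0.34, adjusted p = 0.0549), with 75.2 and 32.3 FPKM in the Stat6-/- controls. For the inducible genes the difference at 24 h was 0.82 (SE 0.43, adjusted p = 0.158) for Psmb10, -0.62 (SE 0.45, adjusted p = 0.318) for Psmb9 and 0.062 for Psmb8, none of them called.

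In culture without IL-4, members were called lower over a day about as often as all loci. Between 0 and 24 h in WT controls, 0 members were called higher and 5 lower, against 5.67% and 11.6% of all loci. These were Psme1 (-0.63 (SE 0.19, adjusted p = 0.0194)), Psmd8 (-0.51 (SE 0.15, adjusted p = 0.0165)), Psmc3ip (-0.68 (SE 0.15, adjusted p = 0.00162)), Psmg2 and Psmg1. Psme1 was at 282, 197, 184 and 194 FPKM at 0 h and 147, 124, 137 and 136 FPKM at 24 h, without overlap. Without replicate 1 of the 0 h control the difference of Psme1 was -0.50 (adjusted p = 0.11 by limma), the count was 3, and Psmg1 was no longer called. Without replicate 2 of the 24 h control the count was 2.

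The 3 inducible core subunits were also lower at 24 h in all samples, as were 15.7% of all loci. Psmb9 was at 109, 80.5, 84.2 and 89.9 FPKM at 0 h against 71.6, 60.8, 65.8 and 57.2 FPKM at 24 h, and differed by -0.50 (SE 0.25, adjusted p = 0.175). Psmb8 differed by -0.58 (SE 0.26, adjusted p = 0.111) and Psmb10 by -0.61 (SE 0.24, adjusted p = 0.0774), and neither overlapped between the times or was called. Fitted on WT samples alone, all 3 were called (adjusted p = 0.000654, 0.00278 and 0.00391 by limma). In the main fit without replicate 1 of the 0 h control, which was high for Psmb8 and Psmb10, the differences shrank. They were then -0.41, -0.38 and -0.41 for Psmb9, Psmb8 and Psmb10 (adjusted p = 0.378, 0.4 and 0.321). The constitutive Psmb5, Psmb6 and Psmb7 differed by 0.079, -0.16 and -0.10, with overlapping samples.

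Before IL-4, the genotypes differed in 1 member. In controls at 0 h, 1 member was called higher in Stat6-/- cells and 0 lower, against 0.673% and 1.51% of all loci. It was the ATPase gene Psmc1, at 44.5, 41.5, 43.2 and 43.3 FPKM in WT and 52.02 and 55.7 FPKM in Stat6-/- cells, a difference of 0.31 (SE 0.065, adjusted p = 0.00543). The difference was not called with only the compared samples (adjusted p = 0.282 by limma), and it was 0.27 without Stat6-/- replicate 2. In the 24 h controls 0 members were called in either direction, against 0.0359% of loci higher and 0.0718% lower. Without Stat6-/- replicate 1 there were 7, all lower in Stat6-/- cells, and without replicate 2 there were 2.

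Genes linked to the proteasome but outside the name pattern were read from a list. Of 16 such genes tested, 8 were called higher and 1 lower with IL-4 at 24 h in WT, against 23.4% and 31.6% of all loci. The deubiquitinase gene Usp14 (0.80), the core maturation factor Pomp (0.52) and the shuttle factor gene Rad23b (0.48) were among those that rose. At 3 h 4 were higher and 3 lower, close to the 16.4% and 12.5% of all loci, and at 6 h 8 were higher and 2 lower, against 22% and 19.2%. Of the transcription factors that raise proteasome genes under stress, Nfe2l2 fell by 0.99 at 1 h and by 1.04 at 3 h, and Nfe2l1 fell by 0.32 and by 0.27. At 24 h neither was called, with -0.16 (SE 0.11, adjusted p = 0.22) for Nfe2l2 and 0.17 (SE 0.078, adjusted p = 0.0636) for Nfe2l1. All IL-4 samples lay below the controls for Nfe2l2 and above them for Nfe2l1, as for 37.1% and 27.4% of all loci.

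Of 13 genes of MHC class I peptide presentation, 4 were higher and 0 lower at 6 h, against 22% and 19.2% of all loci, and 4 were higher and 1 lower at 24 h, against 23.4% and 31.6%. The 4 at 24 h were the chaperones Calr (1.08), Pdia3 (0.61) and Canx and the trimming peptidase Erap1, and the 1 lower was the class I transactivator Nlrc5 (-0.83). Tap1, the neighbour of Psmb9, was at 40.05, 35.1, 29.9 and 25.3 FPKM in controls and 19.6, 14.6 and 13.7 FPKM with IL-4. It lay lower in every IL-4 sample, as Psmb9 did, but was not called (-0.98 (SE 0.47, adjusted p = 0.0715)), or was in the fit of the compared samples alone (adjusted p = 0.00157).

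Of 10 genes of interferon signalling that regulate the inducible subunits, 1 was higher and 6 lower at 24 h, when 23.4% and 31.6% of all loci were called. At each earlier time, 1, 3 and 6 h, 3 were higher and 1 lower. The shares of all loci at these times were 5.67%, 16.4% and 22% called higher and 3.72%, 12.5% and 19.2% called lower. Irf1, a transcription factor that activates the inducible subunits, was higher in WT at 6 h by 1.17 (SE 0.20, adjusted p = 5.51e-06). At 24 h it stood at 0.46 (SE 0.21, adjusted p = 0.064). That difference was called with only the compared samples (adjusted p = 0.00391 by limma) and with WT samples only (0.00238). It was also called with the replicate block (0.00162), although WT numbers were not taken to pair samples at 24 h. In Stat6-/- cells at 1 h, Irf1 was at 52.8 and 68.8 FPKM in controls and 89.5 and 192 FPKM with IL-4, without overlap but not called. WT values at 1 h were 57.0, 52.5, 55.0 and 59.4 FPKM in controls and 118, 98.9, 120 and 99.2 FPKM with IL-4. Socs1, an inhibitor of cytokine signalling, was higher at every time, by 5.90 at 1 h and 3.38 at 24 h.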

How the data were processed

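Polyadenylated RNA of 53 mouse BMDM samples was sequenced from unstranded libraries. The authors mapped reads to mm10 with TopHat2 2.0.7 and computed FPKM with Cufflinks 2.0.2, per the submitters' processing notes, which they deposited for each sample; the annotation they used is not given in the sources used here. FPKM is scaled within a sample, so abundant genes that change shift all others. The tables give no read counts, so no counting interval is given and absolute depth is unknown; relative depth was read from low loci.

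Groups came from the sample labels. The 11146 loci that reached 1 FPKM somewhere were tested with limma 3.58.1 in R 4.3.3 on log2(FPKM + 1), with 1 mean per group over all 53 samples, an intensity trend and 35 residual degrees of freedom. All p-values are two-sided and were adjusted by Benjamini-Hochberg over all loci, and intervals are 95%. Script outputs were checked on simulated data. Alternatives were a pseudocount of 0.1, no filter, quantile normalization, only the samples compared, the replicate number as a block and leaving out each sample; fits of WT samples only and without a Stat6-/- replicate were chosen after seeing the data. Replicate numbers are shared between groups of a genotype. Deviations of same-numbered WT control and IL-4 samples correlated above 0.1 in every pair at 3 h (0.32 to 0.48) and 6 h (0.105 to 0.56) but not at 1 h (lowest 0.027) or 24 h (lowest 0.096), so the WT numbers were taken to pair samples at 3 and 6 h only. In Stat6-/- cells, with 2 pairs at each time, the correlation was 0.79 to 0.90 at every time, so the blocked counts stand beside the genotype difference.

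Promoters came from a RefSeq table (GRCm38.p6) that held 41 of the 49 members. Shared stretches of 50 bases were counted on annotated transcripts of the same build.

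The members, gene lists, motifs and tests were chosen with earlier results of these data known. Named were the 5 inducible genes and their counterparts Psmb5, Psmb6, Psmb7 and Psme3, members called with at least a 2-fold change, the 4 largest called rises and falls per comparison, members not tested, the highest and lowest member per class, and up to 5 called genes per linked list with Tap1 and Irf1; Psmd12, Psmd2, Psma2, Psmd4, Psmd5 and Psma1 were named after their values were seen. Some items of these lists are not reported here.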

Additional observations from a re-analysis of the deposited data

Results flagged for a closer look

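In 22 members named in the report, the highest or lowest of the 4 samples in each of 8 WT groups was compared with the other 3 by Dixon's criterion at 95%. Of 176 such sets 18 held a sample that stood apart, and chance flags about 1 in 20, or 8.8. Replicate 1 of the 0 h control was high for 5 of these, with Psmb10 at 162 FPKM (others 88.8 to 100.1), Psmb5 at 79.3 (38.9 to 42.5), Psmb6 at 169 (116 to 122), Psmb8 at 249 (134 to 146) and Psme1 at 282 (184 to 197). Replicate 1 of the 6 h control was low for Psmb6 at 92.3 FPKM (117 to 122), Psmc4 at 43.3 (51.4 to 52.4) and Psmd14 at 37.0 (44.8 to 45.4). At 3 h of IL-4, replicate 2 was high for Psma3 at 8.45 FPKM (6.00 to 6.27) and Psme2 at 8.15 (3.32 to 3.65), and replicate 4 for Psme3 at 37.2 (33.7 to 33.9). In the 3 h control, replicate 4 was high for Psme3 at 29.5 FPKM (27.8 to 28.1), replicate 2 for Psmc4 at 53.9 (51.7 to 51.9), and replicate 1 was low for Psmg2 at 9.18 (10.9 to 11.1). At 1 h, replicate 2 of the control was high for Psmc1 at 52.8 FPKM (47.7 to 48.5), and with IL-4 replicate 4 was high for Psmd7 at 50.5 (40.9 to 42.5) and replicate 1 low for Psmf1 at 9.34 (9.80 to 9.86). Replicate 2 of the 24 h control was low for Psmb6 at 99.7 FPKM (120.1 to 122). The cause of these deviations was not tested.

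Responses to IL-4 differed by genotype for 16 results by the limma test of the difference itself with Benjamini-Hochberg adjustment, always with the higher value in WT. Of the 48 members these were 2 at 3 h, 4 at 6 h and 10 at 24 h. Among all loci, 6.98%, 9.29% and 12.2% were called higher at these times, and 4.22%, 7.19% and 14.8% lower. At 3 h the differences in log2(FPKM + 1) were 0.80 for Psmg1 (adjusted p = 7.96e-05) and 0.51 for Psme4 (1.41e-05). At 6 h they were 0.92 for Psmg1 (adjusted p = 6.43e-06), 0.45 for Psma4 (0.0192), 0.39 for Psme3 (0.0227) and 0.36 for Psme4 (0.00164). At 24 h they were 0.84 for Psmb6 (adjusted p = 0.0114), 0.80 for Psma4 (5.31e-05), 0.55 for Psmc4 (0.0112), 0.55 for Psmd14 (0.000754) and 0.51 for Psmc5 (0.0288). The remaining 5 at 24 h were 0.49 for Psme3 (adjusted p = 0.0027), 0.47 for Psmd12 (0.00279), 0.43 for Psmd2 (0.0309), 0.41 for Psmg1 (0.0348) and 0.38 for Psma2 (0.0267). Each Stat6-/- group held 2 samples, and the counts without either Stat6-/- replicate stand in the report.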

How the results depend on the processing

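Counts of called members moved by more than 1.5 times in few alternatives. With no filter, 3 members instead of 5 were called between 0 and 24 h in WT controls. Under quantile normalization the 1 member called in WT at 1 h was lost (0). With only the compared samples, the count was 0 at 1 h, 12 (main 6) at 3 h, 4 (main 10) for the genotype difference at 24 h, 16 (main 8) for the change of the WT response from 6 to 24 h and 0 (main 1) for the genotypes at 0 h. With WT samples only it was 0 at 1 h, 16 for the change from 6 to 24 h and 10 for the WT controls. With the replicate block, it was 8 (main 4) and 21 (main 10) for the genotype difference at 6 and 24 h, 14 for the change from 6 to 24 h and 12 for the WT controls; the block changed no other count by that much. No blocked fit exists for the comparisons between genotypes in controls, because replicate numbers are nested in genotype. Without Stat6-/- replicate 1 at all times the count was 1 for the genotype difference at 6 h, 4 for the genotypes at 0 h and 7 at 24 h, and without replicate 2 it was 0 and 2 for the latter. The cause was not tested.

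Leaving out 1 library at a time, the members called in WT with IL-4 numbered 0 to 1 at 1 h, 4 to 6 at 3 h, 19 to 23 at 6 h and 28 to 33 at 24 h, and 0 in Stat6-/- cells at every time. The genotype difference gave 0, 2, 1 to 4 and 1 to 24 at the 4 times. The change of the WT response gave 12 to 20 from 1 to 6 h and 3 to 7 from 6 to 24 h. WT controls gave 2 to 5, and the genotypes 0 to 4 at 0 h and 0 to 7 at 24 h.

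In the MHC class I list, the count at 3 h was 2 with the compared samples or the block and 1 with WT samples only (main 0), at 6 h 2 under quantile normalization (main 4), and at 24 h 3 with no filter and 8 with the block (main 5). Leaving out 1 library gave 1 to 4 at 6 h and 2 to 5 at 24 h. The proteasome-linked list gave 12 (main 7) at 3 h with the compared samples, and 6 to 7, 8 to 11 and 9 to 10 at 3, 6 and 24 h without 1 library. The interferon list gave 7 (main 4) at 6 h with the block, and 3 to 4 without 1 library.

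Among the tests of single genes, direction turned only in values near 0 that were not called. The ranges without 1 library were -0.021 to 0.094 for Psmb5, -0.10 to 0.0024 for Psmb7, -0.15 to 0.025 for Psmb9, -0.077 to 0.0039 for Psme3 and -0.066 to 0.14 for Tap1 at 1 h in WT, -0.016 to 0.093 for Psme1 at 3 h, -0.0084 to 0.21 for Tap1 at 6 h, and -0.018 to 0.32 for Psmb5 and -0.085 to 0.071 for Psme3 between WT controls. The 32 values of the 4 ratios from FPKM + 1 moved by less than the spread between replicates. The other 188 left out 1 library, which cannot move a group mean by more than that spread, so they decide nothing there. In Stat6-/- cells at 24 h, leaving out 1 library turned the direction of the log2 ratio difference between IL-4 and control. It ran from -0.81 to 1.05 for Psmb8 to Psmb5 and from -0.83 to 1.17 for Psmb9 to Psmb6. With no read counts in the tables, levels under about 1 FPKM and the split between near-identical genes could not be resolved.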
